A study of Mus musculus with 4 samples.

Results

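Protein phosphatase 1 (PP1) is a serine/threonine phosphatase whose catalytic subunits were measured here together with the regulatory subunits that steer or inhibit them. The members were the genes whose array name starts with Ppp1c or Ppp1r, other than Ppp1r13b, Ppp1r13l and Ppp1r15a, which were left out. This gave 30 genes of 35079 on the array, measured by 50 probes. The rule goes by name and uses no measured value, but it was set with earlier results of these data known. The members comprise 3 catalytic subunits, 3 nuclear targeting subunits, 1 subunit that targets the translation factor eIF2α, 7 that target myosin or actin, 7 that target glycogen and 9 inhibitors.

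A PP1 catalytic subunit does not act alone in the cell. It binds one of many regulatory subunits, most of them through a short RVxF motif, and the partner decides the place, the substrates and the activity of the enzyme. Aspp1, the protein missing from 2 of the genotypes compared here, is itself a regulatory subunit of PP1 and is encoded by Ppp1r13b, and it is better known as a partner of the tumour suppressor p53.

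The cells were lineage(-) Sca-1(+) cKit(+) cells, or LSK cells, which are the marrow fraction that contains blood stem cells and multipotent progenitors, sorted from male C57BL/6 mice. The genotypes were WT, or wild type, each single knockout (Aspp1-/- and p53-/-) and the double knockout, Aspp1-/-p53-/-. In the last of these and in p53-/- the p53 alleles were floxed and were removed by Cre from the Mx1 promoter, which interferon switches on, whereas the WT and Aspp1-/- labels name no Cre. All mice, controls included, received the interferon inducer pIpC 5 times from 8 weeks of age and were 12 weeks old when the cells were taken, 4 weeks later. The dose is 400 μg in the design text, and in the sample labels it runs from 400 to 403 μg across the genotypes. RNA from 3 mice was pooled per genotype and hybridised to 1 array, so no difference here has a spread between replicates. The p53-/- and Aspp1-/-p53-/- arrays also lay in row 2 of the slide and the other arrays in row 1, so p53 loss, the presence of the Mx1-Cre transgene and the slide row cannot be told apart.

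All 4 arrays held 62976 spots each, and between 50.3% and 53.3% of probes were well above background. Ppp1r13b had a processed signal of 2247 and 2060 on the arrays labelled as lacking Aspp1, against 13182 and 12759 on the others, and Trp53 gave 164 and 169 on the arrays labelled as lacking p53, against 730 and 820. The labels do not say which exons were deleted, so the place of these probes in the alleles is unknown. All 10 LSK markers (Kit, Ly6a, Cd34, Flt3 and others) were well above background on every array, with a summed level of 400 to 411 times the array's 75th percentile. The summed level of 9 granulocyte markers was 53.9 on the Aspp1-/-p53-/- array and 136 to 157 on the other arrays. Precision is limited by the small number of arrays.

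Of the 30 PP1 genes, 22 (73.3%) were well above background on all 4 arrays, 2 on some of them and 6 on none, whereas 54.5% of all genes were well above background on all 4. The genes on no array were Ppp1r3a, Ppp1r3c, Ppp1r3e and Ppp1r3g, which target glycogen, and the inhibitor genes Ppp1r1c and Ppp1r14d. Promoter sequence was set beside this split, because it is a feature that the choice of members did not use. RefSeq promoters (build GRCm38.p6) were matched for 23 members, which have 28 start sites. Below are the 250 bases before the start, 5′ to 3′, of 2 genes well above background on every array (Ppp1cc and Ppp1r8) and of 2 on none (Ppp1r3a and Ppp1r1c), with each CpG dinucleotide in capitals.
Ppp1cc promoter, chr5:122158025-122158274, plus strand: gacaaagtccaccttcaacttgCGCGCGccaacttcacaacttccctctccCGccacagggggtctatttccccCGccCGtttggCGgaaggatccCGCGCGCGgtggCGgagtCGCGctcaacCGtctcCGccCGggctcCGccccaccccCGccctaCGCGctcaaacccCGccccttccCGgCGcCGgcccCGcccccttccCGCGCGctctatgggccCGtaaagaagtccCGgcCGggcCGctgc
Ppp1r8 promoter, chr4:132843170-132843419, minus strand: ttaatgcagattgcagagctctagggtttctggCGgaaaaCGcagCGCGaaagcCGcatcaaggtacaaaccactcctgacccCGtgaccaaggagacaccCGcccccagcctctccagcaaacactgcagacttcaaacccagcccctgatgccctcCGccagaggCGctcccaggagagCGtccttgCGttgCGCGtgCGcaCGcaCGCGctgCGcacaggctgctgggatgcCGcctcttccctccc
Ppp1r3a promoter, chr6:14755275-14755524, minus strand: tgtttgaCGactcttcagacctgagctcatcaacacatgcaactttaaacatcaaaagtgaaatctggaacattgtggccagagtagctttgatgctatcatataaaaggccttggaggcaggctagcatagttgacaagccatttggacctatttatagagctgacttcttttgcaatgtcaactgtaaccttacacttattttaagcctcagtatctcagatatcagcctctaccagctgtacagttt
Ppp1r1c promoter, chr2:79707530-79707779, plus strand: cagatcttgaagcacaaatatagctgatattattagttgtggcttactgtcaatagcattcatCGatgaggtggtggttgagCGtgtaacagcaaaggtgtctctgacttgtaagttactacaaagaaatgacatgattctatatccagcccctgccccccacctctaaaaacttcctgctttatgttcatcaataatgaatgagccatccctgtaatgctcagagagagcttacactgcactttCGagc

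The Ppp1cc promoter held 33 CpG and the Ppp1r8 promoter 19, whereas the Ppp1r3a promoter held 1 and the Ppp1r1c promoter 3. The median was 17.5 CpG, with a range of 5 to 41, over the 22 promoters of the 17 matched members well above background on all arrays. It was 3 over the 5 promoters of matched members on no array, among which Ppp1r3c stood apart with 20. The same split over all genes gave medians of 14 and 3. The GC box GGGCGG, which itself holds a CpG, was searched on either strand of the 250 bases before the start. It was found in 15 of 28 member promoters (53.6%) and in 32.7% of all promoters. Over genes well above background on all arrays the shares were 59.1% of the members' promoters and 54.7% of all. The p53 half-site consensus was searched on both strands of the whole promoter entry, which runs on past the start site. It was found in none of the 28 member promoters and in 8.36% of all promoters. These matches describe letters in a window and not binding.

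**Figure D1:**
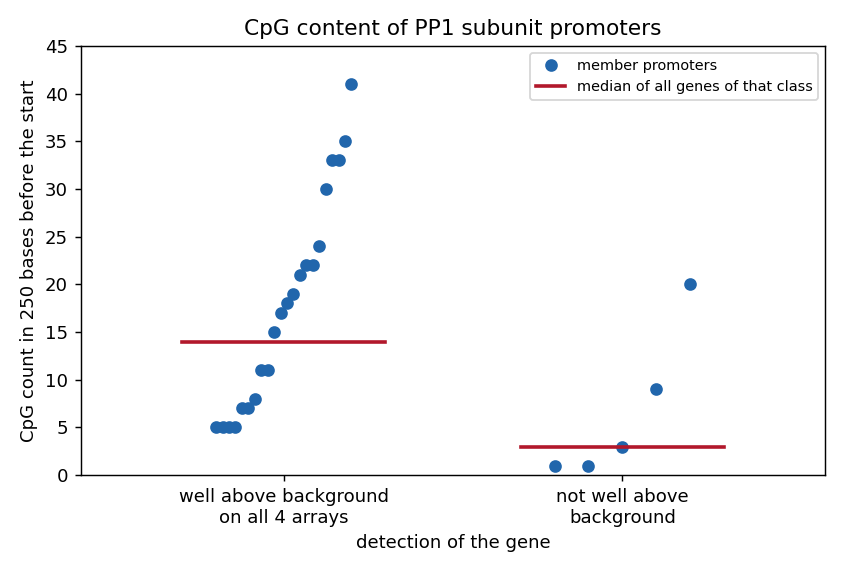
CpG count in the 250 bases before the start site (vertical axis) for each promoter of a PP1 gene, by whether the gene was well above background on all 4 arrays or on none; red lines give the median over all genes of that class, 14 and 3. Promoters of the members on all arrays spread from 5 to 41, and those of members on no array from 1 to 20.

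Levels of the catalytic subunits spanned 0.049 to 0.17 on the log2 scale across the genotypes. Levels are given as log2 of the processed signal relative to the array's 75th percentile, and each difference is between 2 arrays on that scale, for which the scanner's error model gives 0.20 unless another error is stated. Ppp1ca, the α isoform, was at 6.49 in WT, 6.53 in Aspp1-/-, 6.51 in p53-/- cells and 6.48 in the double knockout. These levels span 0.049, within the scanner error. Ppp1cb, the β isoform found in myosin phosphatase, was at 3.56 in WT, 3.69 in Aspp1-/-, 3.52 in p53-/- cells and 3.69 in the double knockout. Both arrays without Aspp1 were above both arrays with it, by 0.13 against WT and by 0.17 against p53-/-, which is under the scanner error in each case. With the mean of both Ppp1cb probes, of which the other is dim, the difference from p53-/- turned to −0.15. Ppp1cc, the γ isoform, was at 5.98 in WT, 5.98 in Aspp1-/-, 6.02 in p53-/- cells and 6.11 in the double knockout, and its largest difference, 0.12 for the double knockout, was again under the scanner error. One Ppp1cc probe, the brightest, shares a run of 20 bases with a probe of another name on the array, so signal from that source cannot be told apart.

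Among the nuclear targeting subunits, Ppp1r10 was at −0.42 and Ppp1r8 at 0.31 in the double knockout against WT. Ppp1r10 has a pair of probes, and the first 30 bases of each 60-base probe are shown because they gave opposite directions (probe positions in mm9).
Ppp1r10, chr17:36067619-36067678, plus strand: ttctcatgatggccctggagggaacatggg
Ppp1r10, second probe, chr17:36055906-36055965, plus strand: tttttaacttagtgccttacagtgttaagt

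Ppp1r8 encodes NIPP1, a nuclear inhibitor that carries PP1 to splicing factors. Its level was 1.15 in WT, 1.25 in Aspp1-/-, 1.36 in p53-/- cells and 1.45 in the double knockout. WT was the lowest array and the double knockout the highest, with a difference of 0.31 between them. Loss of p53 gave 0.22 against WT and 0.20 against Aspp1-/-. With the mean of all probes of the gene these were smaller, 0.16 and 0.13, and the double knockout was 0.24 above WT. In an additive model of both losses over the 4 arrays (limma with an intensity trend, 1 residual degree of freedom), the p53 effect on Ppp1r8 was 0.21 with a standard error of 0.059, an unadjusted p of 0.016 and an adjusted p of 0.25.

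Ppp1r10 encodes PNUTS, the PP1 subunit of a nuclear complex that acts on RNA polymerase II at the end of genes. Its level was 0.92 in WT, 0.64 in Aspp1-/-, 0.73 in p53-/- cells and 0.50 in the double knockout, so every knockout array lay under WT. Against WT the differences were −0.28 with Aspp1 lost, −0.19 with p53 lost and −0.42 with both lost, and loss of Aspp1 in the absence of p53 gave −0.23. The limma estimate for loss of Aspp1 was −0.25 with a standard error of 0.062, an unadjusted p of 0.0090 and an adjusted p of 0.40. The second, dimmer probe went the other way: its level was −2.20 in WT, −1.89 in Aspp1-/-, −1.71 in p53-/- cells and −1.74 in the double knockout. With the mean of both probes the difference between the double knockout and WT was 0.02. The direction for Ppp1r10 therefore rests on the probe that stands for the gene.

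Tox4 and Wdr82 encode the other core proteins of the PNUTS complex. Tox4 had a processed signal of 2079 in WT cells, 1581 in Aspp1-/-, 1789 in p53-/- cells and 1279 in the double knockout, with a difference of −0.61 between the last and WT. Wdr82 was at 0.09 in the same comparison. Ppp1r7, which encodes the nuclear subunit SDS22, had a processed signal of 4521 in WT cells, 5176 in Aspp1-/-, 4974 in p53-/- cells and 4729 in the double knockout, a span of 0.15 on the scaled log2 level, within the scanner error.

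Ppp1r15b encodes CReP, the subunit that keeps eIF2α dephosphorylated in unstressed cells. Its level was −0.28 in WT, −0.26 in Aspp1-/-, −0.51 in p53-/- cells and −0.59 in the double knockout. Both arrays without p53 lay under both arrays with it, by −0.23 against WT and by −0.33 in the double knockout against Aspp1-/-. Both are larger than their scanner error of 0.21, and the limma p53 effect was −0.28 with a standard error of 0.073, an unadjusted p of 0.012 and an adjusted p of 0.22. The stress-induced counterpart Ppp1r15a, which is no member, differed by −0.65 in Aspp1-/-p53-/- against WT and by −0.08 in p53-/- against WT.

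Myosin and actin targeting subunits were all well above background, 7 of 7 on all arrays. Ppp1r12a, the myosin phosphatase targeting subunit MYPT1, was at 3.77 in WT, 3.63 in Aspp1-/-, 3.49 in p53-/- cells and 3.60 in the double knockout. Each knockout lay under WT, by −0.14, −0.28 and −0.17 in that order, and the second exceeds the scanner error. Its dimmer second probe spanned little, at −0.35 in WT, −0.37 in Aspp1-/-, −0.37 in p53-/- cells and −0.32 in the double knockout.

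Ppp1r12b and Ppp1r16b, a paralogue of Ppp1r12a and the endothelial subunit TIMAP, were dim and had wider scanner errors. Ppp1r12b had a processed signal of 42.7 in WT cells, 57.3 in Aspp1-/-, 57.6 in p53-/- cells and 35.9 in the double knockout. Either single knockout was above WT, by 0.36 and 0.41, while the double knockout was at −0.16, with scanner errors of 0.30, 0.32 and 0.37. Against p53-/- the double knockout was at −0.57, and with normexp background correction at −0.09. Another Ppp1r12b probe of similar signal did not show the pattern, at 53.3 in WT, 48.8 in Aspp1-/-, 40.7 in p53-/- cells and 44.6 in the double knockout. Ppp1r16b had a signal of 82.5 in WT cells, 81.4 in Aspp1-/-, 93.5 in p53-/- cells and 62.5 in the double knockout, lowest in the double knockout at −0.31 against WT with a scanner error of 0.24. With normexp that difference was −0.05. A second Ppp1r16b probe read 42.7 in WT, 42.3 in Aspp1-/-, 62.9 in p53-/- cells and 39.2 in the double knockout. On that probe the double knockout was at −0.04 against WT and p53-/- at 0.54. Ppp1r9a and Ppp1r9b encode the actin-binding scaffolds neurabin and spinophilin. By the probe that stands for each gene, Ppp1r9a, Ppp1r9b, Ppp1r12c and Ppp1r16a lay between −0.07 and 0.12 against WT on every knockout array. A dimmer Ppp1r9a probe was at −0.36 in the double knockout against WT, and a dimmer Ppp1r16a probe at 0.15 in Aspp1-/- against WT.

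Glycogen targeting subunits were detected in part. Ppp1r3b, the subunit best known from liver, was at 4.28 in WT, 4.28 in Aspp1-/-, 4.37 in p53-/- cells and 4.27 in the double knockout, a span of 0.11. Ppp1r3d and Ppp1r3f were also on all arrays and lay between −0.18 and −0.01 against WT. The muscle subunit Ppp1r3a was well above background on no array, and of 5 skeletal muscle markers only Tnnt3 was, on the WT and Aspp1-/- arrays.

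Inhibitor genes included the only members past 2-fold. Of 24 PP1 genes measured in p53-/- against WT, 2 were at least 2-fold higher and none lower, where 3.61% of all genes were at least 2-fold higher and 5.13% past 2-fold in either direction. These were Ppp1r1a, which encodes inhibitor-1, a PP1 inhibitor that protein kinase A activates, and Ppp1r14a, which encodes CPI-17, an inhibitor of myosin phosphatase in smooth muscle. Each is measured by 1 probe, whose first 30 bases are shown because the result rests on that probe alone (mm9).
Ppp1r1a, chr15:103361073-103361132, minus strand: gaaaaatagacgtctggaagtaggaggtcg
Ppp1r14a, chr7:30076540-30076600, plus strand: gccggacgaggtcaacatcgatgagctatt

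Ppp1r1a had a processed signal of 5.01 in WT cells, 5.30 in Aspp1-/-, 385 in p53-/- cells and 6.42 in the double knockout. It was well above background on the p53-/- array alone, as were 633 genes in all, or 2.76% of the genes detected. The difference is a bound: at least 22.4-fold between p53-/- and WT (4.49 or more on the log2 scale) and at least 15.6-fold between p53-/- and the double knockout, each taken against the lowest signal well above background on the dimmer array. Within the p53-/- spot the standard deviation between pixels was 51.2% of their mean, and the median pixel was 336 against a mean of 385. For the 2949 spots on that array with a mean of 300 to 500 the median of that ratio was 14.7% and its 95th percentile 23.8%. The scanner did not flag the spot as non-uniform, and the part of the uneven spot in the result was not tested. With normexp the difference from WT was 2.25.

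Ppp1r14a had a signal of 29.7 in WT cells, 27.5 in Aspp1-/-, 93.0 in p53-/- cells and 18.0 in the double knockout and was well above background on all but the last. The p53-/- array stood above the other arrays, by 1.62 against WT with a scanner error of 0.30, and at least 3.77-fold against the double knockout. With normexp the difference from WT was 0.71, which is past 1.5-fold but not past 2-fold. The smooth muscle gene Acta2 was at 27.2 in WT and was not well above background on the p53-/- array, and Myh11 was not well above background on any array. The summed level of the stromal and smooth muscle markers, of which 5 of 9 were detected, was 6.31 times the 75th percentile in WT and 6.07 in p53-/- cells. Of the 5, 4 lay below WT in p53-/- cells, Cxcl12 at −1.35 and Col1a2 at −0.76 among them, and the median over the 5 was −0.24.

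**Figure D2:**
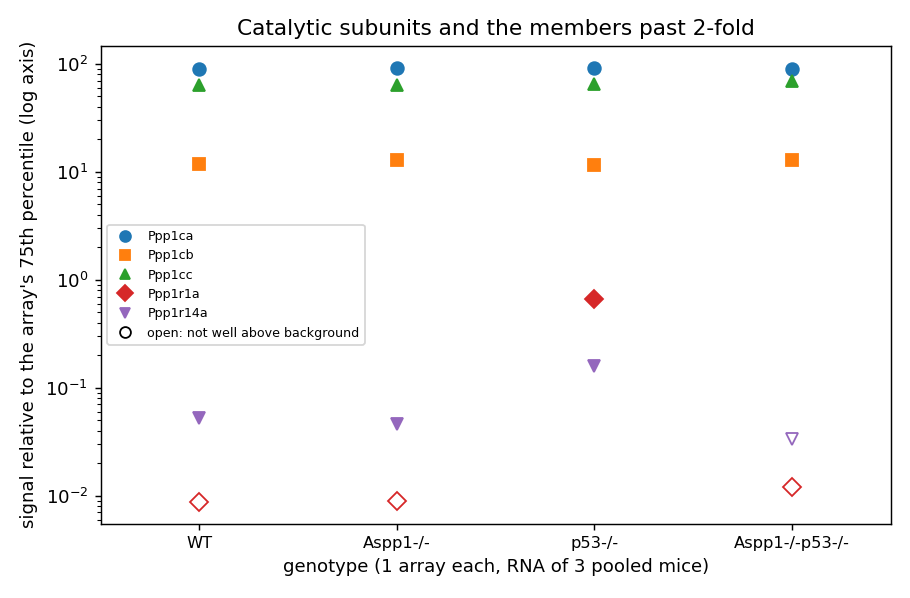
Processed signal relative to the array's 75th percentile (vertical axis, log scale) on the 1 array of each genotype (horizontal axis), for the 3 catalytic subunits and the members past 2-fold; open symbols were not well above background. Ppp1r1a and Ppp1r14a were highest on the p53-/- array, while the catalytic subunits lay within 0.17 on the log2 scale.

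By the probe that stands for each gene, the other inhibitors showed no such difference. Ppp1r2, which encodes inhibitor-2, had a processed signal of 1477 in WT cells, 1427 in Aspp1-/-, 1502 in p53-/- cells and 1520 in the double knockout. The scaled log2 difference of 0.25 between the double knockout and Aspp1-/- became 0.02 with the mean of its 5 probes. A dimmer Ppp1r2 probe, well above background on all arrays, was highest on the p53-/- array. It gave 0.72 in p53-/- against WT and −0.64 in the double knockout against p53-/-. The remaining Ppp1r2 probes lay between −0.08 and 0.02 in the first of these comparisons and between −0.01 and 0.13 in the second. Ppp1r1b, which encodes the dopamine-regulated inhibitor DARPP-32, had a signal of 44.5 in WT cells, 32.5 in Aspp1-/-, 50.8 in p53-/- cells and 38.7 in the double knockout. It was lowest in Aspp1-/- cells, by −0.52 against WT with a scanner error of 0.31, and by −0.22 with normexp. Ppp1r11, Ppp1r14b and Ppp1r14c lay between −0.01 and 0.09 against WT on every knockout array. The only Ppp1r14c probe shares a run of 20 bases with a probe of Cd300lg, so signal from that source cannot be told apart.

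Taken over the family, few PP1 genes were past the size rules. In Aspp1-/- against WT, 0 of 23 measured members were past 2-fold and 0 past 1.5-fold, where 3.48% and 6.76% of all genes were. In Aspp1-/-p53-/- against WT the counts were again 0 of 23, where 5.94% and 11.9% of all genes were past those sizes. In p53-/- against WT the 2 genes past 2-fold were also the only ones past 1.5-fold, which 8.93% of all genes were. In Aspp1-/-p53-/- against p53-/- the same 2 genes, Ppp1r1a and Ppp1r14a, were at least 2-fold lower, as were 3.29% of all genes, and no other member was past 1.5-fold. In that comparison 5.77% and 9.94% of all genes were past the sizes in either direction, and it shares the p53-/- array with the one before. In Aspp1-/-p53-/- against Aspp1-/- there were 0 of 23, where 5.62% and 10.2% of all genes were past the sizes. RNA of a whole sorted fraction was measured, so fewer cells of a type and less RNA per cell cannot be told apart. The low granulocyte marker signal of the double knockout goes with all 3 comparisons of that array, and its part in them was not tested.

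Member medians were at or near 0, as were those of all genes: 0.01 in p53-/- and −0.02 in the double knockout, each against WT, beside 0.01 and 0.0019 over all genes. The 22 members well above background on all arrays spread less between arrays than genes at large. Their median span over the 4 arrays was 0.139, against 0.210 for the 19117 genes so detected, and 14 of them (63.6%) spanned under 0.2, as did 47.5% of all genes. The standard deviation of the difference between Aspp1-/-p53-/- and WT was 0.173 over these members and 0.357 over all genes. Signal strength was not matched between members and other genes, and these are descriptions without a test.

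**Figure D3:**
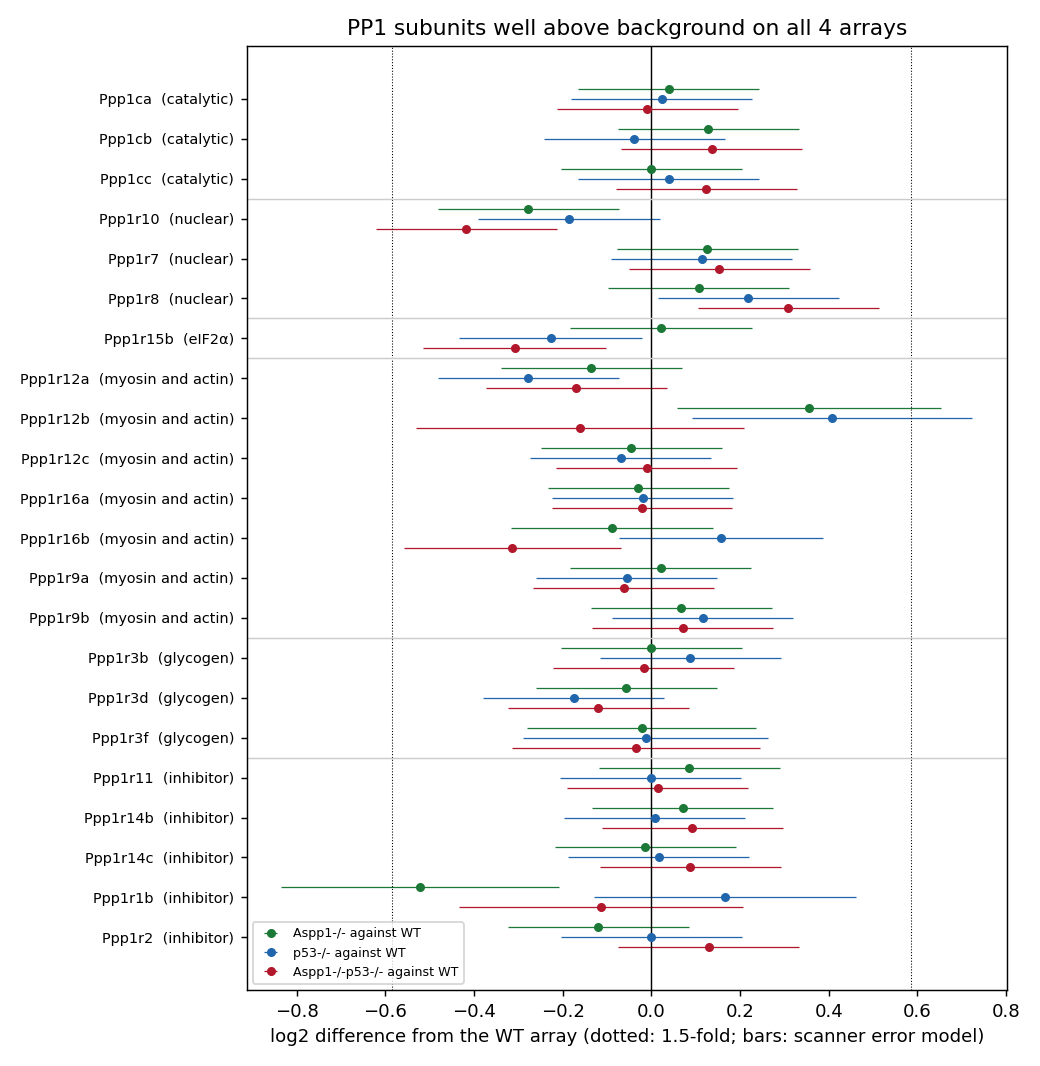
Log2 difference from the WT array (horizontal axis) of each knockout array for the 22 PP1 genes well above background on all 4 arrays, ordered by role, with bars of the scanner error model and dotted lines at 1.5-fold. All points lie inside the dotted lines, and Ppp1r1b at −0.52 in Aspp1-/- cells is the farthest from WT.

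Loss of each gene was measured in a pair of comparisons that share no array. For loss of Aspp1, 10 of the 22 members (45.5%) had the same sign with p53 present (Aspp1-/- against WT) and with p53 absent (the double knockout against p53-/-), 5 higher and 5 lower, where 11470 of all 19117 genes so detected had the same sign. For loss of p53 it was 14 of 22 (63.6%), 7 higher and 7 lower, against 61.3% of all genes. No member of 23 was past 1.5-fold in the same direction in both comparisons of either loss, where 0.783% of all genes were for Aspp1 and 1.99% for p53. In the additive model limma called 0 of 24 members for either loss at an adjusted p under 0.05, where it called 0.00872% of all genes for Aspp1 and 0.423% for p53. At an unadjusted p under 0.05 there were 2 members for Aspp1 (Ppp1r10 and Ppp1cb) and 3 for p53 (Ppp1r15b, Ppp1r8 and Ppp1r10), where 9.03% and 12.6% of all genes passed. Without the intensity trend limma called 0 genes for either loss, with 4.79% of genes for Aspp1 and 7.51% for p53 at an unadjusted p under 0.05. The limma estimate for Ppp1cb on loss of Aspp1 was 0.15 with a standard error of 0.052 and an adjusted p of 0.51.

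**Figure D4:**
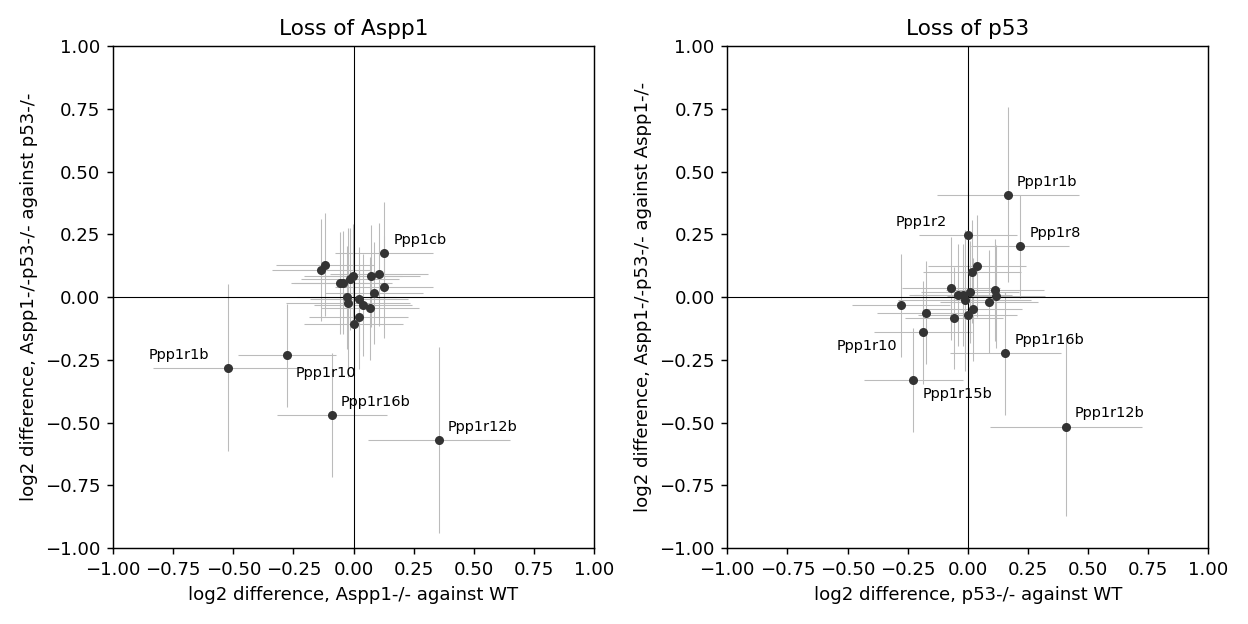
Log2 difference in the absence of the other gene's product (vertical axis) against the difference in its presence (horizontal axis) for loss of Aspp1 (left) and of p53 (right), for the 22 members well above background on all arrays, with bars of the scanner error model. Most points lie within 0.25 of 0 on both axes, and Ppp1r12b lies below 0 on the vertical axis (−0.57 and −0.52) and above 0 on the horizontal axis in both panels.

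Probes of one gene give a measure of error beyond the scanner's. The 12 members with more than 1 usable probe had 16 other probes, and in Aspp1-/-p53-/- against WT 10 of 16 had the sign of the probe that stands for the gene, with a median gap of 0.12 and a largest gap of 0.88, for Ppp1r10. In Aspp1-/- against WT 9 of 16 had the same sign. Among the 16, the Ppp1r14b probe is placed on chromosome X, while the probe that stands for that gene is placed on chromosome 19. Whether both measure the same gene was not tested. The sign of a small difference thus depended on the probe for some members, Ppp1r10 and Ppp1r12b among them.

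**Figure D5:**
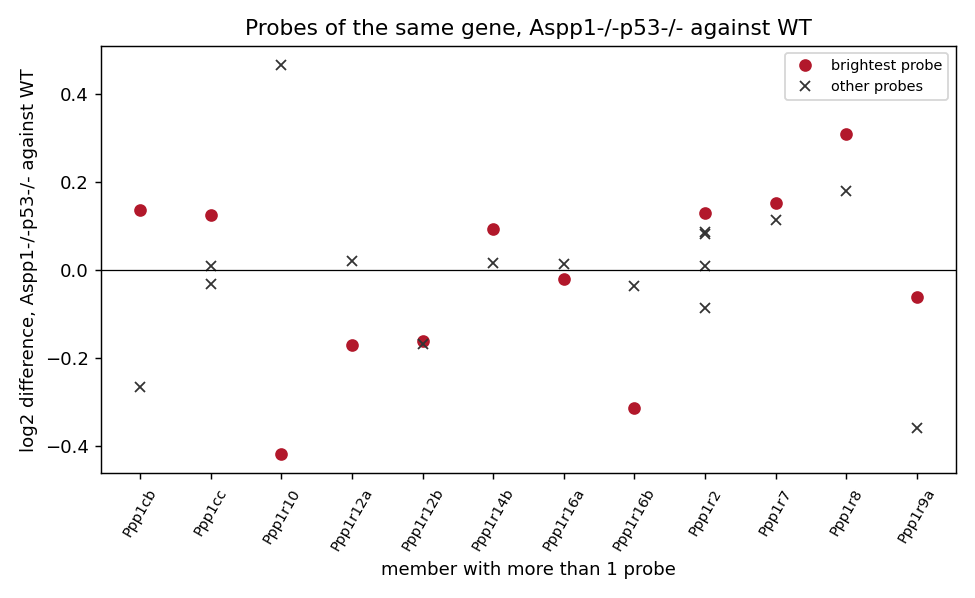
Log2 difference between Aspp1-/-p53-/- and WT (vertical axis) for each probe of the 12 PP1 genes with more than 1 usable probe (horizontal axis), with the brightest probe, which stands for the gene, as a red circle and the other probes as crosses. The Ppp1r10 probes lie 0.88 apart, on either side of 0.

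PP1 also has partners whose symbols do not start with Ppp1. Of 30 such genes on the array 26 were detected, and none was past 1.5-fold in Aspp1-/- against WT or in the double knockout against p53-/-. In Aspp1-/-p53-/- against WT, 3 of 26 were at least 1.5-fold lower, where 5.65% of all genes were: Tox4 as given above, Phactr1 at −0.63, a regulator of actin and PP1, and Csrnp1 at −1.01. Csrnp1, a nuclear protein that binds PP1, gave a signal of 18605 in WT cells, 15601 in Aspp1-/-, 12491 in p53-/- cells and 8668 in the double knockout, and its difference in p53-/- against WT was −0.60. Against Aspp1-/- the double knockout had 2 of 26 past 1.5-fold lower, Csrnp1 at −0.69 and the nucleolar PP1 partner Rrp1b at −0.65, where 4.5% of all genes were. The list's medians lay between 0.0021 and 0.04 in the 5 comparisons.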

How the data were processed

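LSK cells of 4 genotypes were profiled on 1-colour (Cy3) Agilent arrays, 1 per genotype, each with RNA pooled from 3 mice. Per the file headers, spots were read with version 10.7.3.1 of Agilent's Feature Extraction, and the deposited processed intensity is linear, background-subtracted and without normalisation across arrays. Other values in the deposited files are flags of 0 or 1 (well above background, saturated, outlier). The authors' value table holds log2 values centred per probe; its scale, centring and direction come from the values (differences had r = 1 with the scanner's over 26465 probes), the constant taken off each array is unknown, and column medians were −0.0661 (WT), −0.0422 (Aspp1-/-), 0.0267 (p53-/-) and 0.0478 (Aspp1-/-p53-/-).

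Control spots (3671 per array) and outlier spots (120 to 172) were left out, spots of a probe averaged, and log2 intensity set relative to each array's 75th percentile (537 to 599). No spot was saturated. Other genes were named through RefSeq accessions where these matched (26760 probes), and all 44 member probes with such an accession had the file's name. For each gene the probe with the highest mean was used, out of the probes well above background somewhere. With 1 array per genotype the rule was size (2-fold or 1.5-fold), and where the dimmer array was not well above background the difference is a bound against the higher of the probe's own value and that array's lowest value well above background. An additive model was fitted with limma 3.58.1 (R 4.3.3) over 22935 genes with Benjamini-Hochberg adjustment, and was tested on simulated data, where more genes were called in error than the adjusted threshold allows, so its adjusted p-values may be too small. Named genes were the catalytic subunits, members past 2-fold, the 10 largest differences in Aspp1-/-p53-/- against WT, up to 4 members past 1.5-fold of other lists, and examples of a role. Alternatives were normexp (offset 50), median scaling, quantile normalisation, other filters, the mean of probes, the authors' table and limma without trend. The members and lists were chosen with earlier results of these data known.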

Additional observations from a re-analysis of the deposited data

Results flagged for a closer look

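Ppp1r12b, a paralogue of the myosin phosphatase targeting subunit, had opposite signs in the comparisons that share no array. Loss of Aspp1 gave 0.36 where p53 was present and −0.57 where it was absent, a difference of −0.92 on the log2 scale. With normexp background correction the same values were 0.07 and −0.09, a difference of −0.16. Loss of p53 gave 0.41 where Aspp1 was present and −0.52 where it was absent, which is the same −0.92, since both are made from the same 4 arrays. With 1 array per genotype this difference was not tested. Another probe of the gene did not show it, and the spot signals were 35.9 to 57.6.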

How the results depend on the processing

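No paired analysis was possible because each genotype has 1 array and the labels give no shared replicate numbers, and no array could be left out for the same reason. Of the counts and medians recomputed under an alternative, 110 stayed within the limits set and 19 moved. Without a filter on dim probes, of 30 members those past 2-fold and past 1.5-fold were 1 and 1 in Aspp1-/- against WT (6.17% and 12.4% of all genes), 4 and 4 in p53-/- against WT (7.69% and 14.2%), and 1 and 1 in Aspp1-/-p53-/- against WT (8.16% and 15.98%). In that setting 6 were past 1.5-fold against p53-/- (14.1% of all genes), 1 and 2 were past the sizes against Aspp1-/- (7.87% and 14.5%), and 1 was past 1.5-fold in both comparisons of Aspp1 loss. With normexp 1 of 24 was past 2-fold in p53-/- against WT (1.99% of all genes) and 1 of 24 in the double knockout against p53-/- (2.48%). With probes well above background on all 4 arrays there were 0 at either size among 22 in both of these comparisons (1.09% and 3.49% of all genes, then 1.42% and 3.95%), since Ppp1r1a and Ppp1r14a are then left out. Median scaling moved the member median to −0.11 in p53-/- against WT and to 0.0786 in the double knockout against p53-/-, and that of all genes to −0.105 and 0.0773. With the authors' deposited values, for which no bounds were set, 1 member of 23 was past 1.5-fold in Aspp1-/-p53-/- against WT. In either direction 14.1% of all genes were. The member was Ppp1r14a, lower at −0.63, which was not well above background on the double-knockout array. By the bound used elsewhere its difference was −0.29. Of 427 alternatives for named genes 409 stayed within the scanner error, 18 moved and 0 of the differences past 1.5-fold changed sign. Only differences of Ppp1r1a and Ppp1r14a were large enough for that last count, and some of them are bounds. Smaller differences could change sign uncounted, as for Ppp1r10 in Aspp1-/-p53-/- against WT, from −0.42 to 0.02 with the mean of probes. Alternatives for the pairs of comparisons were chosen after seeing the data. Dim probes limit Ppp1r1a, Ppp1r14a, Ppp1r12b, Ppp1r16b and Ppp1r1b.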

Other observations

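Genes that act with or against PP1 were mostly as level as the members. Of 26 detected kinases and substrates that PP1 opposes or acts on, Mylk, the kinase of the myosin light chain that myosin phosphatase opposes, had the one difference past 2-fold. Its processed signal was 102 in WT, 79.7 in Aspp1-/-, 72.1 in p53-/- cells and 392 in the double knockout, which is 2.03 against WT, 2.55 against p53-/- and 2.45 against Aspp1-/- on the log2 scale. At least 2-fold higher were 3.5% of all genes in the first of these comparisons. Cdc42bpb was at −0.60 in the double knockout against p53-/-, where 5.78% of all genes were at least 1.5-fold lower. No other gene of the list was past 1.5-fold. Of 27 detected genes of the other PPP-type phosphatases, Ppp4r4 alone was past 1.5-fold. It was well above background on the Aspp1-/-p53-/- array only, with bounds of 1.02 or more against WT and 0.88 or more against Aspp1-/-. In these comparisons 6.3% and 5.74% of all genes were at least 1.5-fold higher.

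Some genes now named Ppp1r by RefSeq carry an older name on the array and so were outside the members. Of 12 such genes 7 were detected, and Ppp1r14bl, on the array as 4933415F23Rik, was the one past 1.5-fold. In Aspp1-/-p53-/- it was at 0.68 against WT, 0.80 against Aspp1-/- and 1.01 or more against p53-/-, where it was not well above background. At least 1.5-fold higher were 6.3% of all genes against WT, 5.74% against Aspp1-/- and 4.16% against p53-/-. Ppp1r14bl was dim, at −4.14 in WT, −4.26 in Aspp1-/-, −4.47 in p53-/- cells and −3.46 in the double knockout. Ppp1r18, Ppp1r21, Ppp1r26, Ppp1r27, Ppp1r35 and Ppp1r37 lay between −0.36 and 0.28 in the single knockouts against WT.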
